A study of Saccharomyces cerevisiae and Saccharomyces paradoxus and Saccharomyces mikatae with 10 samples.

Results

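Transcript levels of the genes that encode the yeast proteasome were examined in 9 strains of 3 related species. The set was chosen by systematic name and holds 35 genes: the core particle (PRE and PUP genes and SCL1), the regulatory particle (RPT and RPN genes and SEM1), UMP1, BLM10 and the transcription factor gene RPN4. Of these, 30 had a row among the 4325 genes of the deposited table, and 27 of the 30 encode structural subunits, out of 32 such genes in the set. PRE7, PUP3, RPT2, RPT5 and SEM1 were not analysed here. Values were present for all 7 alpha ring genes, 5 of 7 beta ring genes, 3 of 5 genes for ATPases of the base, 4 of 4 other base genes, 8 of 9 lid genes and all 3 accessory genes. All 30 passed the filter on low values, a mean of at least 1 over the strains.

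The S. mikatae strain was IFO1815, and the S. paradoxus strains were N17 and N44, all 3 labelled wild. S. cerevisiae was represented by the wild strains DBVPG1788 and YPS606 and by 4 strains from other settings: BC187 (wine), DBVPG6040 (fruit juice), Y9 (distillery) and YJM145 (clinical). All strains were grown in the same synthetic medium that imitates oak exudate and were harvested in mid-log phase, with no treatment. The labels set the columns apart by strain, species and environment of origin. Library totals, where they could be inferred, also differed, as given below. The labels give no sequencing date or batch, and the sequence used to align S. paradoxus and S. mikatae reads is not given. Technical differences between the columns are therefore not excluded. Each strain had 1 value per gene, and the 2 libraries of YPS606 were joined by the authors into 1 column. The strains therefore served as the replicates, and differences were tested against the spread between strain columns, which includes technical differences between libraries. In the species comparisons most of that spread came from S. cerevisiae and none from the single S. mikatae strain. The unit was taken as RPKM, read numbers divided by the length of the gene and by the total of the library, which allows levels of different genes to be set side by side.

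The low values of the S. cerevisiae strains implied library totals of 57.9 M in Y9 to 153.1 M in YPS606 (M for mega, reads or fragments). These totals hold only if the unit is RPKM, and for IFO1815, N17 and N44 no depth could be read. In IFO1815 426 genes were listed at 0, against 1 to 5 in each other strain. RPN5 was the only one of the 30 proteasome genes among them, and it was treated as missing in that strain. Over all genes tested the median difference of S. paradoxus from S. cerevisiae was 0.32 on the log2 scale, and values relative to this shift are given where a result turns on it.

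The proteasome degrades proteins that carry ubiquitin chains. Its barrel-shaped core is built of stacked rings: outer alpha rings that gate the entrance, and inner beta rings that hold the peptidase sites. The regulatory particle caps the barrel. Its base contains a ring of ATPases that unfold substrates, together with scaffold and ubiquitin-binding subunits, and its lid removes the ubiquitin. In S. cerevisiae the transcription factor Rpn4 binds a short element, the proteasome-associated control element, upstream of most proteasome genes, and Rpn4 is itself a short-lived substrate of the proteasome, which closes a feedback loop.

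The element was searched for as GTGGCAAA, and as GGTGGCAAA with 1 more base, on both strands of the 300 bases upstream of each start codon in the R64 genome, the RefSeq assembly of the laboratory strain S288C. The 8-letter form was found in 29 of the 35 genes (82.9%), against 159 of the 6001 windows of all protein-coding genes (2.65%). The 9-letter form, which contains the 8-letter one, was found in 26 of the 35 (74.3%), against 73 of the 6001 windows (1.22%). All 7 alpha, all 7 beta and all 5 ATPase genes held a match, as did 8 of 9 lid genes, 2 of 4 other base genes and 0 of 3 accessory genes. The first base of the match lay 83 to 182 bases before the start codon, with a median of 123. It was on the gene's strand in 22 genes and on the opposite strand in 7. No match lay in the windows of RPN13, RPN10, SEM1, UMP1, BLM10 or RPN4. The element is known from S. cerevisiae proteasome genes, so these shares restate that knowledge and are not a result of the values measured. The windows of the 35 genes are among the 6001. A match describes letters in the S288C genome, not in the strains measured, and is not a measured binding site. Windows of 28 bases are printed below for 8 subunits that the values single out. These are the highest core subunits (PRE9, PRE4), those whose distance from the strain's subunit median varied least (PRE10, PRE5, RPT4) and the 3 in which it varied most (RPN5, RPN9, RPN3). Each is written 5′ to 3′ on the gene's strand with the match in capitals, and TTTGCCAC is the element on the opposite strand.
PRE9: taccctgcagGTGGCAAAaaatttatag
PRE4: tggtttagaaTTTGCCACcttaaatacg
PRE10: ctctaaatcgGTGGCAAAaataagaaag
PRE5: ctattatagaGTGGCAAAattaaaaatt
RPT4: aatagtggaaTTTGCCACcgaagggaaa
RPN5: tgacttttcgGTGGCAAAatgcaaaggg
RPN9: ctttcatccgGTGGCAAAagtaagaaca
RPN3: acgaaaaacaTTTGCCACccaagaaaga
The windows on the plus strand are chrVII:761224-761251 for PRE9, chrXIII:901553-901580 for PRE5, chrIV:190777-190804 for RPN5, chrIV:1322087-1322114 for RPN9 and chrV:196843-196870 for RPN3. Those on the minus strand are chrVI:249960-249987 for PRE4, chrXV:1018856-1018883 for PRE10 and chrXV:813803-813830 for RPT4. The 9-letter form was present in all of these except PRE5, whose match is preceded by an a.

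The structural subunits with values lay within a 4.52-fold range in every strain. Their median was 173 RPKM in IFO1815, 216 in N17 and 131 in N44, against 209 in DBVPG1788, 143 in YPS606, 191 in BC187, 175 in DBVPG6040, 134 in Y9 and 129 in YJM145. The S. cerevisiae strains thus spanned 1.62-fold and enclosed IFO1815, while N17 lay above all 6 and N44 between YJM145 and Y9, the 2 lowest. These medians were 3.18 to 5.99 times the median of all genes of the same strain. Within a strain the highest subunit was 2.87-fold (Y9) to 4.52-fold (DBVPG6040) above the lowest, and the SD over subunits was 0.40 to 0.53 on the log2(RPKM + 1) scale. Together the subunits took 1.34% of the summed RPKM in IFO1815, 1.13% in N17 and 0.732% in N44, against 0.716% to 1.07% in S. cerevisiae. The share in IFO1815 rests on 26 subunits and on a sum that lacks the genes at 0.

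**Figure D1:**
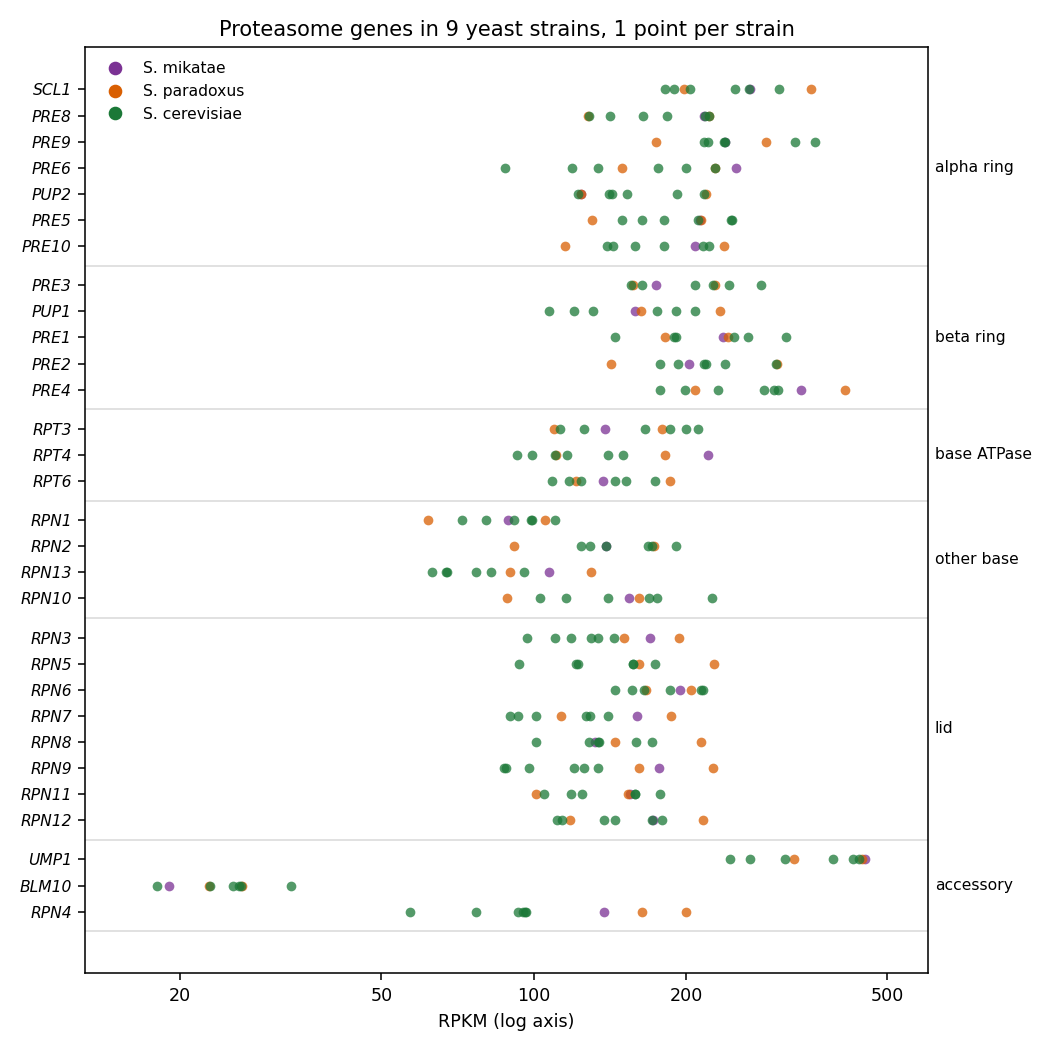
RPKM (log axis) of the 30 proteasome genes with values, grouped by role, with 1 point per strain coloured by species. The subunits lie between 61.9 (RPN1 in N44) and 412 RPKM (PRE4 in N17), UMP1 lies above them within each strain and BLM10 far below them, and for RPN4 the S. mikatae and S. paradoxus points lie to the right of all 6 S. cerevisiae points.

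The median of the core genes with values lay above that of the regulatory genes in every strain. The ratio of these medians was 1.39 in IFO1815, 1.27 in N17 and 1.35 in N44, against 1.30 to 1.67 in S. cerevisiae. These core genes were 597 to 867 bases long in the R64 genome. All regulatory genes with values but RPN10, RPN12 and RPN13 were longer, up to 2982 bases. Whether length bears on the ratio was not tested. The medians lack RPT1, RPT2, RPT5 and SEM1 on the regulatory side and PRE7 and PUP3 on the core side. In the alpha ring PRE9 (YGR135W), which encodes the one alpha subunit that yeast can live without, had the highest mean over the strains. PRE9 was at 238 RPKM in IFO1815, 288 in N17 and 174 in N44, against 328 in DBVPG1788, 237 in YPS606, 359 in BC187, 239 in DBVPG6040, 221 in Y9 and 217 in YJM145. PUP2 (YGR253C), the alpha gene with the lowest mean, was at 124 RPKM in IFO1815, 219 in N17 and 124 in N44, against 192 in DBVPG1788, 143 in YPS606, 217 in BC187, 153 in DBVPG6040, 122 in Y9 and 141 in YJM145. For both genes the species overlapped, and the high strains were N17, DBVPG1788 and BC187.

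Among beta ring genes PRE4 (YFR050C), a beta subunit gene, had the highest mean. PRE4 was at 337 RPKM in IFO1815, 412 in N17 and 208 in N44, against 286 in DBVPG1788, 232 in YPS606, 298 in BC187, 304 in DBVPG6040, 199 in Y9 and 177 in YJM145. PUP1 (YOR157C), which encodes the subunit with trypsin-like activity, had the lowest. PUP1 was at 158 RPKM in IFO1815, 233 in N17 and 163 in N44, against 209 in DBVPG1788, 131 in YPS606, 191 in BC187, 175 in DBVPG6040, 107 in Y9 and 120.4 in YJM145. PRE4 in IFO1815 and N17 exceeded every S. cerevisiae strain, but N44 did not. The other catalytic subunit genes, PRE3 (caspase-like activity) and PRE2 (chymotrypsin-like activity), averaged 213 ± 47.9 and 224 ± 43.0 RPKM in S. cerevisiae (SD, n = 6).

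In the base the ATPase genes lay lower. RPT3 (YDR394W), the highest of them on average, was at 138 RPKM in IFO1815, 179.6 in N17 and 109.6 in N44, against 211 in DBVPG1788, 166 in YPS606, 200.2 in BC187, 186 in DBVPG6040, 113 in Y9 and 126 in YJM145. RPT4 (YOR259C), the lowest on average, was at 221 RPKM in IFO1815, 182 in N17 and 111 in N44, against 150.0 in DBVPG1788, 109.9 in YPS606, 140.3 in BC187, 116 in DBVPG6040, 92.7 in Y9 and 99.4 in YJM145. The order of the 2 genes was thus turned round in IFO1815 and nearly level in both S. paradoxus strains. RPT6 averaged 137 ± 24.4 RPKM in S. cerevisiae (SD, n = 6).

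The other base genes encode the scaffold proteins Rpn1 and Rpn2 and the ubiquitin receptors Rpn10 and Rpn13. RPN10 (YHR200W) was at 154 RPKM in IFO1815, 161 in N17 and 88.5 in N44, against 225 in DBVPG1788, 116 in YPS606, 169 in BC187, 175 in DBVPG6040, 103 in Y9 and 140.3 in YJM145. RPN13 (YLR421C) was at 107 RPKM in IFO1815, 129.5 in N17 and 89.6 in N44, against 82.4 in DBVPG1788, 63.0 in YPS606, 95.4 in BC187, 67.3 in DBVPG6040, 76.8 in Y9 and 66.9 in YJM145. RPN13 was the lowest subunit in all 6 S. cerevisiae strains, and RPN1 was the lowest in IFO1815, N17 and N44. Neither receptor gene holds the Rpn4 element in the window searched.

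In the lid RPN6 (YDL097C), which encodes a scaffold subunit that touches the core, was the highest on average. RPN6 was at 195 RPKM in IFO1815, 205 in N17 and 167 in N44, against 214 in DBVPG1788, 165 in YPS606, 216 in BC187, 186 in DBVPG6040, 145 in Y9 and 157 in YJM145. RPN7 (YPR108W), a lid scaffold subunit gene with the lowest mean, was at 160.2 RPKM in IFO1815, 187 in N17 and 113 in N44, against 129 in DBVPG1788, 101 in YPS606, 127 in BC187, 139.9 in DBVPG6040, 92.9 in Y9 and 89.9 in YJM145. RPN11, the gene of the deubiquitinase, averaged 140.4 ± 28.5 RPKM in S. cerevisiae (SD, n = 6). The median of the lid genes was 0.788 of that of the core genes in IFO1815, 0.891 in N17 and 0.964 in N44, against 0.548 in DBVPG1788 to 0.844 in Y9 among S. cerevisiae.

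The accessory genes UMP1 and BLM10 lay at the extremes of level, and they were also the shortest (447 bases) and the longest (6432 bases) members with values. UMP1 (YBR173C), whose product guides maturation of the core and is then degraded by it, exceeded every structural subunit in all 9 strains. UMP1 was at 452 RPKM in IFO1815, 446 in N17 and 327 in N44, against 428 in DBVPG1788, 313 in YPS606, 439 in BC187, 390.1 in DBVPG6040, 244 in Y9 and 268 in YJM145. BLM10 (YFL007W), which encodes a large alternative cap of the core, was at 19.0 RPKM in IFO1815, 26.5 in N17 and 22.8 in N44, against 33.2 in DBVPG1788, 18.03 in YPS606, 22.9 in BC187, 25.5 in DBVPG6040, 26.3 in Y9 and 26.1 in YJM145. UMP1 was highest in IFO1815, N17, BC187 and DBVPG1788 and lowest in Y9 and YJM145, and BLM10 was highest in DBVPG1788 and lowest in YPS606.

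RPN4 (YDL020C), the gene of the transcription factor, was the proteasome gene that set S. paradoxus and S. cerevisiae farthest apart. RPN4 was at 138 RPKM in IFO1815, 199.7 in N17 and 163 in N44, against 96.7 in DBVPG1788, 76.7 in YPS606, 95.4 in BC187, 56.8 in DBVPG6040, 96.1 in Y9 and 93.2 in YJM145. All 3 strains of the other species exceeded all 6 S. cerevisiae strains. The S. paradoxus mean was 182 RPKM, against 85.8 ± 16.1 in S. cerevisiae (SD, n = 6). The difference was 1.09 on the log2(RPKM + 1) scale (SE 0.24), with a Benjamini-Hochberg adjusted p of 0.0118 in limma's two-sided test over 4239 genes. With every strain centred on its median over all genes the difference was 0.75 and the adjusted p 0.0756 in the same limma test with Benjamini-Hochberg adjustment, and without N17 it was 0.95 with 0.0839.

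RPN9 (YDR427W), which encodes a lid subunit, was the other member past the threshold of 0.05. RPN9 was at 177 RPKM in IFO1815, 226 in N17 and 161 in N44, against 88.2 in DBVPG1788, 97.9 in YPS606, 125 in BC187, 134 in DBVPG6040, 120.0 in Y9 and 87.2 in YJM145. Again IFO1815, N17 and N44 lay above all S. cerevisiae strains. The difference between S. paradoxus and S. cerevisiae was 0.83 (SE 0.24; limma, Benjamini-Hochberg adjusted p = 0.0314). It was 0.49 with an adjusted p of 0.171 after median centring and 0.58 with 0.216 without N17 (limma, Benjamini-Hochberg). Without DBVPG1788, YPS606 or YJM145 the adjusted p was 0.0510, 0.0577 and 0.0579 (limma, Benjamini-Hochberg), in that order.

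Over the 30 genes, 2 were higher in S. paradoxus and 0 were lower at an adjusted p under 0.05 (limma, Benjamini-Hochberg), while 21.7% of all genes tested were higher and 2.43% lower. The share of members called higher was thus below that of all genes. The median difference of the 30 was 0.10, against 0.32 over all genes, and 8 of the 30 exceeded 0.32. The values of N17 and N44 pulled in opposite directions here: without N44 the median of the 30 was 0.45, and without N17 it was −0.22 and no member was called. It was −0.05 after quantile normalisation and −0.23 after median centring, so the sign of the members' median depends on the scaling. By role the median difference was −0.03 for alpha genes (3 of 7 positive), −0.06 for beta genes (2 of 5), 0.15 for ATPase genes (2 of 3), −0.22 for other base genes (1 of 4) and 0.37 for lid genes (7 of 8), while 72.1% of all genes were positive, so the lid genes' count and median were near those of all genes. No role other than the lid and the accessory genes held a member past the threshold.

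Both S. paradoxus strains exceeded all 6 S. cerevisiae strains for 3 of the 30 genes, against 30.6% of all genes, and lay below all 6 for 0, against 5.33%. The 3 genes were RPN4, RPN9 and RPN3. RPN3 (YER021W), which encodes a lid subunit, was at 169.7 RPKM in IFO1815, 194 in N17 and 151 in N44, against 110.3 in DBVPG1788, 119 in YPS606, 144 in BC187, 134 in DBVPG6040, 129.6 in Y9 and 96.9 in YJM145. Its difference of 0.49 (SE 0.21) had an adjusted p of 0.116 in limma with Benjamini-Hochberg adjustment and was not past the threshold.

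**Figure D2:**
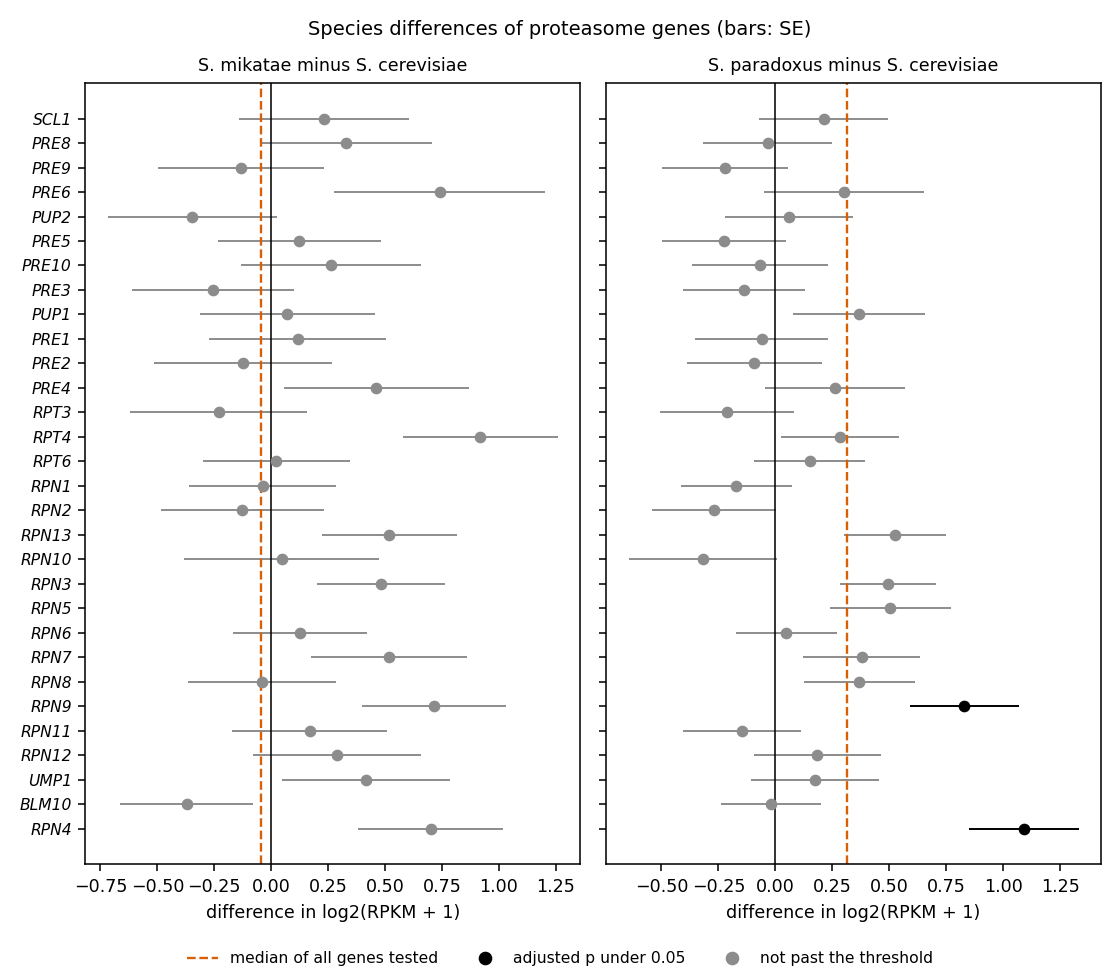
Difference in log2(RPKM + 1) from S. cerevisiae for each proteasome gene in S. mikatae (left) and in S. paradoxus (right), with the SE of limma's fit as bars and the median of all genes tested as a dashed line. RPN4 (1.09) and RPN9 (0.83) in S. paradoxus are the values past the threshold, and 22 of the 30 S. paradoxus values lie below the dashed line at 0.32.

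Against S. cerevisiae, S. mikatae showed no call among the 29 genes with a value, while 4.06% of all genes were higher and 9.92% lower (limma, Benjamini-Hochberg adjusted p under 0.05, over 3822 genes). S. mikatae is represented by 1 strain, which the fit assumes to vary like the others, and 2 of the 29 genes had an unadjusted p under 0.05, against 26.8% of all genes. The median difference of the 29 genes was 0.13, against −0.05 over all genes. IFO1815 lay above all 6 S. cerevisiae strains for 9 of the 29, against 22.6% of all genes, and below all 6 for 0, against 32.4%. The 9 were PRE6, PRE4, RPT4, RPN13, RPN3, RPN7, RPN9, UMP1 and RPN4. The largest difference was that of RPT4, 0.92 (SE 0.34; limma, Benjamini-Hochberg adjusted p = 0.110), followed by PRE6 with 0.74, RPN9 with 0.72 and RPN4 with 0.70. No one of these passed the threshold. S. mikatae and S. paradoxus were set against the same 6 S. cerevisiae strains, so their differences share those values.

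Within S. cerevisiae the wild strains, DBVPG1788 and YPS606, were compared with the 4 strains from other settings. No proteasome gene passed the threshold in either direction, and over all 4239 genes the shares called were 0.0% higher and 0.0% lower (limma, Benjamini-Hochberg adjusted p under 0.05). At an unadjusted p under 0.05 there were 55 genes, of which 0 were proteasome genes. The subunit median averaged 176 RPKM in the wild strains and 157 in the others. The median difference of the 30 genes was 0.11, against −0.06 over all genes, and it was −0.10 without DBVPG1788 and 0.27 without YPS606, so its sign rests on DBVPG1788. Core genes were positive for 11 of 12 and lid genes for 2 of 8, none past the threshold, while 37.1% of all genes were positive. RPN4 averaged 86.7 RPKM in the wild strains and 85.4 in the others.

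Levels also differed between single strains. BC187 was the highest of the 6 S. cerevisiae strains for 17 of the 30 genes, against 9.41% of all genes, and the lowest for 0, against 14.0%. DBVPG1788 was the highest for 9, against 23.7%, and the lowest for 0, against 11.4%. YJM145 was the highest for 0, against 6.65%, and the lowest for 15, against 18.9%. Y9 was the highest for 1 gene, RPN5, against 18.7%, and the lowest for 10, against 13.9%. DBVPG6040, which was the highest for 37.0% of all genes, was so for 3 of the 30. YPS606 was the highest for 0, against 4.55%, and the lowest for 3, against 31.7%. BC187 was thus at the top, and YJM145 and Y9 at the bottom, for a larger share of the proteasome genes than of all genes, while the share of DBVPG1788 at the top was near that of all genes. These are descriptions of 1 column per strain, without a test.

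The S. paradoxus strains also differed from each other. N17 exceeded N44 for 30 of the 30 genes, against 52.3% of all genes tested. The log2 difference ran from 0.20 for BLM10 to 1.08 for PRE2, with a median of 0.66, while the median over all genes was 0.03. PRE2 was at 302 RPKM in N17 and 142 in N44. The subunit median was 1.66-fold higher in N17 than in N44, about the span of the 6 S. cerevisiae strains (1.62-fold). With 1 column each, the difference has no replicate check.

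RPN4 and the subunit median were not ordered alike across all strains, and whether their levels are related was not tested. N17 was the highest of all strains in both, and DBVPG1788 was the highest S. cerevisiae strain in both. By the summed RPKM of the subunits BC187 was higher (5527, against 5113 in DBVPG1788), so the place of DBVPG1788 rests on the use of the median. The ratio of RPN4 to the subunit median was 0.795 in IFO1815, 0.924 in N17 and 1.25 in N44, against 0.463 in DBVPG1788, 0.537 in YPS606, 0.500 in BC187, 0.325 in DBVPG6040, 0.717 in Y9 and 0.725 in YJM145. N44 had more RPN4 transcript than any S. cerevisiae strain with a subunit median near that of Y9 and YJM145. RPN4 was at 96.7, 95.4 and 96.1 RPKM in DBVPG1788, BC187 and Y9, whose subunit medians were 209, 191 and 134 RPKM in the same order. DBVPG6040 had the lowest RPN4 level and a subunit median of 175 RPKM, the third highest of the 6. Transcript levels do not give the amount of Rpn4 protein.

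**Figure D3:**
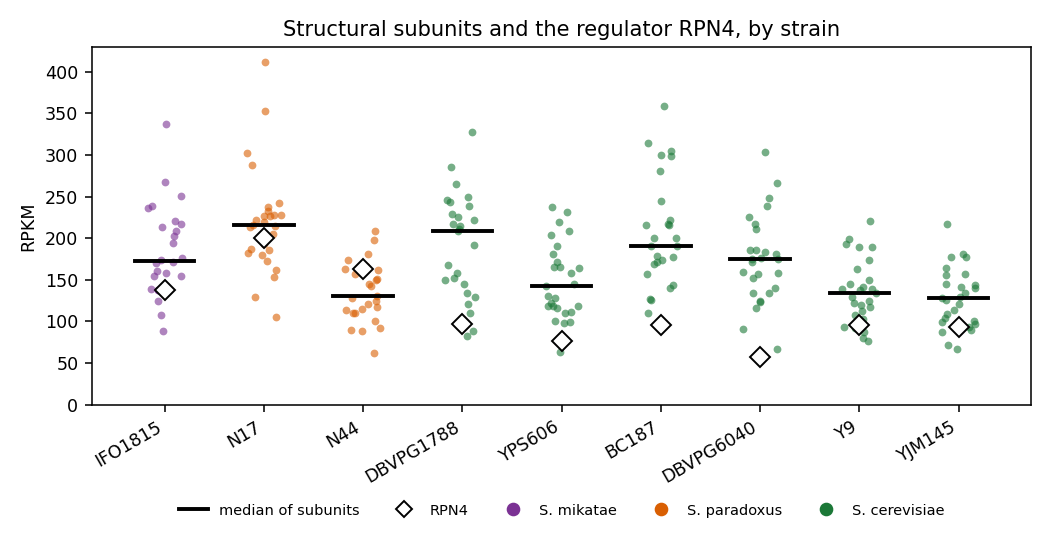
RPKM of the structural subunits in each strain (points, coloured by species), with their median (bar) and RPN4 (open diamond). RPN4 lies above the subunit median in N44 and below it in the other 8 strains, farthest below in DBVPG6040 (ratio 0.325).

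Among the S. cerevisiae strains most subunits varied less relative to the strain's subunit median than in level. The SD of a subunit's level over the 6 strains, on the log2(RPKM + 1) scale, had a median of 0.30 and a range of 0.21 to 0.51, close to the median of 0.29 over all genes. When each subunit was expressed as its offset from the strain's subunit median, the SD had a median of 0.15 and a range of 0.05 to 0.38. The offset SD was below the level SD for 22 of the 27 subunits. Over all genes, the offset from the strain's median gene had a median SD of 0.26, and 14.6% of all genes had an SD below the subunits' median of 0.15. The all-gene figure refers to another median and was not matched on expression level. The subunit median comes from these same subunits, so part of the fall in SD is built in, more so for subunits near the middle.

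The subunits with the steadiest offset from the subunit median were PRE10, PRE5 and RPT4, with offset SDs of 0.05, 0.08 and 0.08, followed by PRE8 and RPN6 with 0.09 each. PRE10 (YOR362C), an alpha ring gene, was at 209 RPKM in IFO1815, 237 in N17 and 115 in N44, against 222 in DBVPG1788, 159 in YPS606, 216 in BC187, 181 in DBVPG6040, 139 in Y9 and 143 in YJM145. PRE5 (YMR314W), also of the alpha ring, was at 213 RPKM in IFO1815, 214 in N17 and 131 in N44, against 246 in DBVPG1788, 181 in YPS606, 245 in BC187, 211 in DBVPG6040, 149 in Y9 and 164 in YJM145. Among S. cerevisiae both were high in DBVPG1788 and BC187 and low in Y9 and YJM145, as the subunit median was. RPT4 did so too, and only in IFO1815 did it lie above the subunit median (offset 0.35).

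**Figure D4:**
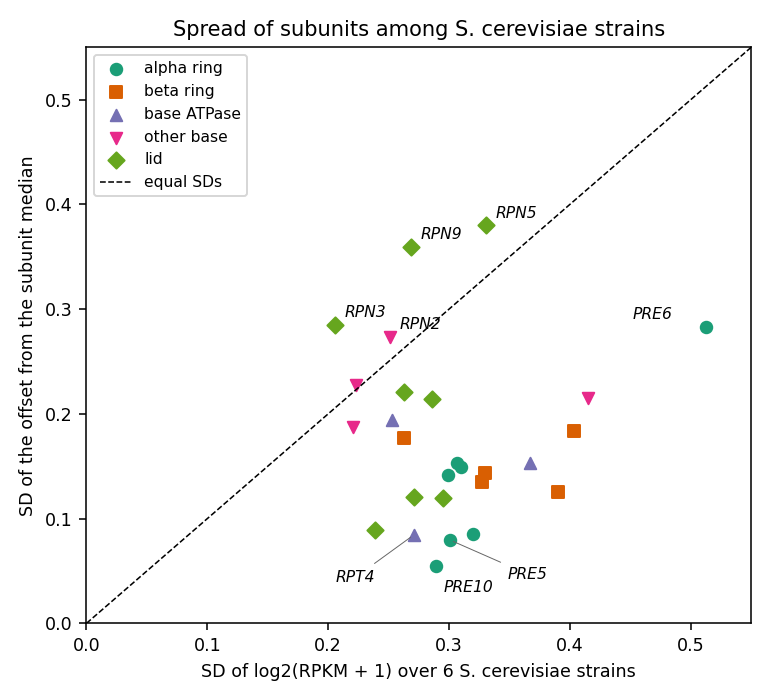
SD over the 6 S. cerevisiae strains of each subunit's level (x axis) and of its offset from the strain's subunit median (y axis), both in log2(RPKM + 1), with 1 point per subunit. Points below the dashed line of equal SDs, 22 of 27, varied less after the strain's subunit median was removed. The lid genes RPN5, RPN9 and RPN3 and the base genes RPN2 and RPN13 lie above the line.

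The largest offset SDs were those of the lid genes RPN5 (0.380), RPN9 (0.360) and RPN3 (0.285), with the core gene PRE6 (0.283) and the base gene RPN2 (0.273) close behind. This order rests on single strains: without DBVPG1788 the offset SD was 0.182 for RPN9 and 0.153 for RPN3, against 0.289 for PRE6, and without Y9 it was 0.252 for RPN5 and 0.154 for PRE6. The lid genes RPN6, RPN7 and RPN11 were among the steadier subunits, with 0.0888, 0.120 and 0.120. RPN5 (YDL147W) was at 227 RPKM in N17 and 161 in N44, against 121 in DBVPG1788, 122 in YPS606, 157 in BC187, 157 in DBVPG6040, 174 in Y9 and 93.5 in YJM145. It was highest in Y9, a strain with low subunit levels, and N44 lay below Y9, so the species overlapped. In DBVPG1788 the offsets of RPN9, RPN3 and RPN5 were −1.23, −0.91 and −0.78, and those of the base genes RPN13 and RPN1 were −1.33 and −1.07. In Y9 the offsets of RPN9, RPN3 and RPN5 were −0.16, −0.05 and 0.37, and those of RPN13 and RPN1 were −0.80 and −0.73. RPN13 and RPN1 lay below the subunit median in every strain, with −1.365 for RPN13 in DBVPG6040 and −1.066 for RPN1 in N44. Their low place was thus not particular to DBVPG1788. PRE6, a core gene, had the widest level SD (0.51), with 251 RPKM in IFO1815, 228 in N17 and 149.5 in N44, against 229 in DBVPG1788 and 87.8 in Y9, the extremes of S. cerevisiae. RPN5, RPN9 and RPN3 hold the 9-letter Rpn4 element in the S288C window, as PRE10 and RPT4 do.

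**Figure D5:**
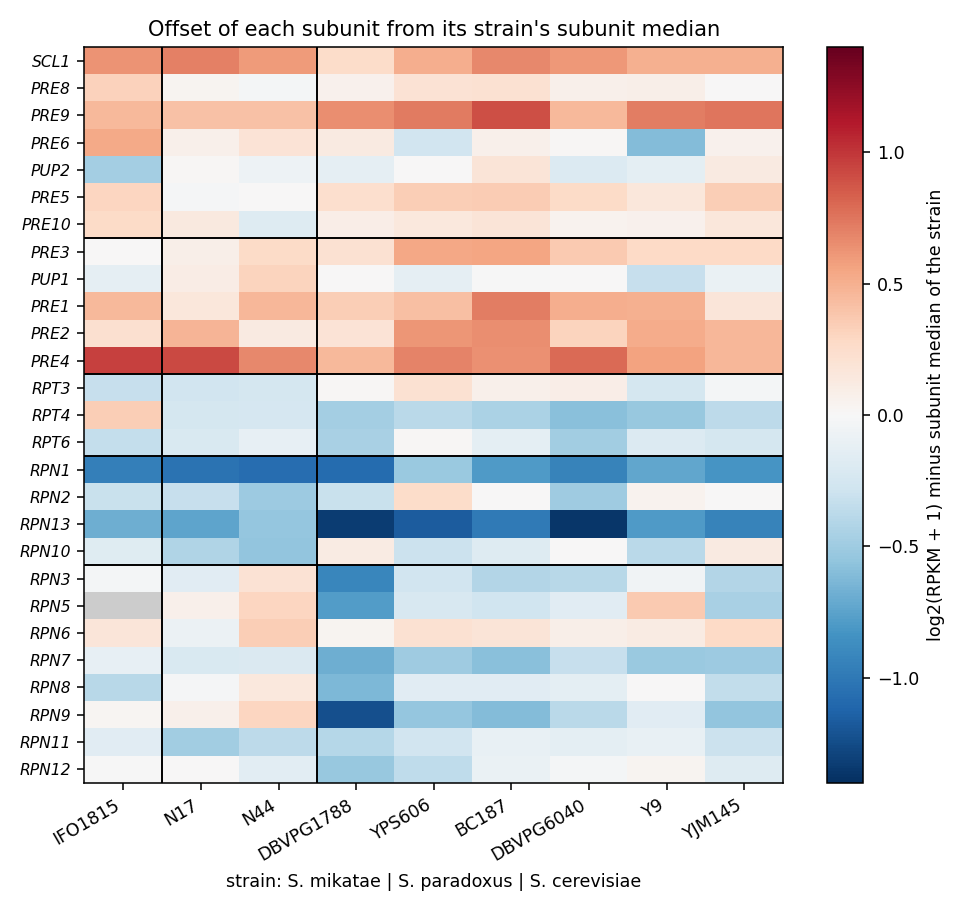
Offset of each structural subunit from its strain's subunit median in log2(RPKM + 1) (colour scale), with strains in columns and subunits in rows by role. Core subunits are mostly above the median (red) and base and lid subunits mostly below (blue). In DBVPG1788 RPN13 (−1.33), RPN9 (−1.23), RPN1 (−1.07) and RPN3 (−0.91) stand low, but RPN13 and RPN1 lie below the median in every strain. RPN5 in IFO1815 is missing (grey).

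The wider pathway was followed through 31 other genes, of which 27 were tested. They encode ubiquitin and its activating and conjugating enzymes, ligases, shuttle factors and Cdc48 with its partners, proteasome-associated proteins, assembly chaperones and regulators of RPN4. In S. paradoxus 5 of the 27 were higher than in S. cerevisiae and 0 lower (limma, Benjamini-Hochberg adjusted p under 0.05), against 21.7% and 2.43% of all genes, and their median difference was 0.33, against 0.32 over all genes. Both the share called and the median were thus near those of all genes. Among the 5 called, the largest differences were 0.97 for YAP1, 0.85 for PDR1 and 0.77 for HSM3, with limma Benjamini-Hochberg adjusted p-values of 0.0249, 0.0368 and 0.0166 in that order. These differences include the shift of 0.32 over all genes. The calls were not examined after median centring or with a strain left out. YAP1 and PDR1 encode transcription factors of the oxidative stress and drug responses that are known to act on RPN4, and HSM3 encodes a chaperone of base assembly. YAP1 was at 147 RPKM in N17 and 82.6 in N44, against a mean of 56.5 ± 11.3 in S. cerevisiae (SD, n = 6), and PDR1 was at 42.9 in N17 and 27.9 in N44, against 19.2 ± 4.79. DBVPG6040 was the highest S. cerevisiae strain for both, with 75.8 RPKM for YAP1 and, about level with N44, 27.8 for PDR1. HSM3 was at 39.0 RPKM in N17 and 27.8 in N44, against 18.9 ± 1.75.

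In S. mikatae 1 of 25 such genes was higher and 2 were lower than in S. cerevisiae (limma, Benjamini-Hochberg adjusted p under 0.05), near the 4.06% and 9.92% of all genes. The higher one was NPL4, a partner of Cdc48 in the extraction of ubiquitylated proteins, with 81.4 RPKM in IFO1815 against 24.3 ± 4.45 in S. cerevisiae (SD, n = 6), a difference of 1.72 (SE 0.34; limma, Benjamini-Hochberg adjusted p = 0.00637). The lower ones were UBC5 and PDR3, which were below 0.01 RPKM in IFO1815. Values that near to 0 can be failed estimates in a strain with many genes at 0, so no fold is given for them. Between wild and other S. cerevisiae strains 0 of 27 passed the threshold in limma's test with Benjamini-Hochberg adjustment. RPT1, the sixth ATPase gene of the base, was not analysed here.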

How the data were processed

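Per the labels' protocols, polyadenylated RNA was fragmented, copied with random primers and sequenced as 10 libraries of 9 strains. The submitters' processing notes name cutadapt, TopHat, Cufflinks and the R64 genome build, without their role or order, and the sequence to which the S. paradoxus and S. mikatae reads were aligned is not given in the sources used here. The deposited values are taken to be RPKM, although no label or header names the unit. S. cerevisiae low values, times gene length, were whole multiples of a constant step for 93.1% to 96.4% of values (tolerance 0.05). Any read number divided by gene length and by a constant per column gives such multiples, so they do not tell RPKM from other such units. Steps were searched within a fixed range, so a larger step, and thus a smaller library total, could have been missed. Intervals from counts were not computed, because RPKM are not counts, and no count test was run. No strand-specific step is stated, and no other gene of the R64 RefSeq annotation overlaps a proteasome gene.

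Genes with a mean of at least 1 were tested on log2(RPKM + 1) with limma 3.58.1 in R 4.3.3 (eBayes with trend, two-sided, Benjamini-Hochberg adjustment over all genes tested, threshold 0.05). This scale understates differences of low genes. Species were compared in 1 fit of 9 strains, and wild with other strains in the 6 S. cerevisiae strains. Values of 0 in IFO1815 were missing. The script was tested on simulated data. Members, lists and tests were chosen with earlier results of these data known. Values are given in every strain for members past the threshold, the highest and lowest mean of each role, the 3 largest and 3 smallest offset SDs, and RPN4. PRE2, PRE3, PRE6, RPT6 and RPN11 were named after their values were seen. The element was planned for a promoter table, and 300 bases upstream of the start codon in the R64 genome were used instead. Alternatives were a pseudocount of 0.1, a minimum mean of 10 or none, centring on the median, quantile normalisation, zeros kept, all 9 strains with species as a covariate for the environment, and leaving out each strain. The labels give no sequencing date or batch.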

Additional observations from a re-analysis of the deposited data

How the results depend on the processing

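Of 147 combinations of 10 tested results with an alternative, 132 kept direction and side of the threshold (counts of calls: stayed within 1.5 times), 14 were weaker, 1 gained a call and 0 reversed. All 14 weaker ones fell in the S. paradoxus results that had a call to lose: the count of members, RPN4 and RPN9. The other results had no call to lose, so the 132 do not measure how stable the calls are. Leaving out single strains for the offset SD of single subunits was chosen after seeing the data. The 2 genes called between S. paradoxus and S. cerevisiae became 1 (RPN4) after quantile normalisation and 0 after median centring, which removed the shift of 0.32 over all genes. Leaving out 1 strain gave 0 to 2, with 0 without N17 and 1 without DBVPG1788, YPS606 or YJM145. In the other alternatives the adjusted p of RPN4 lay between 0.00772 and 0.0344 (limma, Benjamini-Hochberg). The 0 calls for S. mikatae became 1 when zeros were kept as values: RPN5, lower. Treating values under 0.01 RPKM in IFO1815 as missing too, an alternative chosen after seeing the data, left the count at 0. The comparison of wild with other strains had 0 of the 30 genes called in each alternative run. The 2 medians of SDs, which have no test, moved by less than the SD over subunits in all 16 combinations. That SD is not an error of the median, so the criterion does not measure how stable the medians are. With 1 strain left out the median level SD of the subunits was 0.26 to 0.31 and the median offset SD 0.15 to 0.17. No paired analysis was possible because each strain has 1 column and no replicate number links one strain to another. With 1 column per strain, differences between single strains carry no error, and depth is unknown for N17, N44 and IFO1815.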
